A study of Mus musculus with 3 samples.

Results

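The genes described here encode assembly factors of the large ribosomal subunit, proteins that act on the maturing subunit but are not part of the finished ribosome. A list of 47 gene symbols, chosen with earlier results of these data known, was looked up in the deposited expression table. All 47 were among its 16977 genes. Every one had a mean of at least 10 normalised reads, the minimum for testing, and the lowest number of reads behind any value was 344. The cells were cultured neural stem cells from C57BL/6J mouse embryos at stage E12.5, grown with EGF and FGF. They had been infected with a lentivirus carrying either a short hairpin RNA against Phf2 (shPHF2, 2 libraries described as biological replicates) or a control hairpin (shControl, 1 library), so both groups had gone through infection and carried a hairpin. PHF2 belongs to a family of histone demethylases that act on methylated lysine 9 of histone H3. Total RNA without ribosomal RNA was sequenced, and values are given as normalised read counts, in which the authors scaled each library's reads by a size factor.

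Large subunits are built in the nucleolus, where the long precursor of ribosomal RNA is transcribed and folded together with ribosomal proteins. Early factors, among them RNA helicases and scaffold proteins, fold and trim the precursor there, nucleoplasmic factors then remodel the particle with GTPases and large ATPases, and a last group takes it through the nuclear pore and is released in the cytoplasm. Dividing progenitors make many ribosomes, and nucleolar proteins such as nucleostemin and nucleophosmin are known for their abundance in stem and proliferating cells. Stages were assigned from this textbook order, much of it worked out in yeast, as 28 early nucleolar factors, 4 general nucleolar proteins with further roles, 13 nucleoplasmic factors and 2 late export factors. Each factor was placed in a single stage, so a factor that joins the particle before that stage, or stays after it, is not shown as such.

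Libraries held 37171026 reads in genes in shPHF2 replicate 1, 26302177 in shPHF2 replicate 2 and 32898139 in shControl. Phf2 itself had 985 and 714 normalised reads in the shPHF2 libraries and 2593 in shControl, a log2 fold change of -1.63 (limma, SE 0.24, adjusted p = 0.0085). All 10 neural stem cell markers looked up were detected, with nestin (Nes) at 101381 and 98053 normalised reads in shPHF2 and 118161 in shControl. In limma only Sox2 was called, as higher, while DESeq2 called Sox2, Vim and Prom1 higher (adjusted p = 0.021, 0.012 and 0.036). Vim averaged 161% of the control in shPHF2, and Prom1 had 193 and 499 in shPHF2 and 111 in shControl. Pax6 went the other way, at 1046 and 691 in shPHF2 and 1392 in shControl, and was called by neither tool. Hes5 was the lowest of the 10, at 20.0 and 14.5 in shPHF2 and 39.9 in shControl. Summed over each list, markers of microglia (2 of 5 in the table), fibroblasts (3 of 4) and erythroid cells (1 of 3) were between 2.41 and 30.0 normalised reads in any library, with Col1a1 at 0 in shPHF2 replicate 2 and Aif1 at 0 in shControl. Endothelial markers (4 of 4) summed to 169 and 80.8 in shPHF2 and 211 in shControl, mostly Kdr, with Cldn5 at 0 in both shPHF2 libraries. Neuronal markers (6 of 7) summed to 38895 and 39771 in shPHF2 and 60607 in shControl, almost entirely Map2, so the sum does not describe the others. Of those, Syp was called higher, and Tubb3 had 198 and 346 in shPHF2 and 104 in shControl without being called. Rbfox3 went the other way, at 87.5 and 13.3 in shPHF2 and 142 in shControl, and was not called. Astrocyte markers (4 of 4) summed to 1263 and 1917 in shPHF2 and 478 in shControl, with S100b called higher. Among them Aldh1l1 differed between the shPHF2 libraries, at 152 and 1009, with 146 in shControl. S100b had 1094 and 850 in shPHF2 and 331 in shControl. Oligodendrocyte lineage markers (5 of 5) summed to 24607 and 29348 in shPHF2 and 29993 in shControl, almost entirely Olig2. The part of these marker differences in the results below was not tested, and in bulk samples fewer cells of a type and less RNA per cell cannot be told apart.

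Promoter sequence was examined for what the factors share apart from their role. The E-box CACGTG, a palindrome bound by MYC-family and related transcription factors, was searched in windows from 250 bases before to 50 bases after the annotated start (RefSeq, GRCm38.p6), and its symmetry makes one search cover both strands. Of the 47 factors, 40 had a window in the table (the others were Bop1, Gnl2, Gnl3l, Mak16, Npm1, Rpf1 and Rrs1) and 8 of these (20.0%) held the motif, against 11.5% of the 10296 tested genes with a window and 8.09% of all 27025 genes with one. The share was 26.7% for small subunit factors (12 of 45) and 14.8% for other large subunit factors (4 of 27). Among the factors with a window it was present in 4 of the 23 that passed the test described below and in 4 of the 17 that did not. The other carriers, Nle1, Pes1, Tex10 and Nmd3, had log2 fold changes of -0.78, -0.56, -0.52 and -0.29. The windows of the 4 called carriers, chosen with their values known, are shown as examples of where the motif lies, 5' to 3' on the strand of the gene with the E-box in capitals. The windows lie at chr4:32656869-32657168 on the plus strand (Mdn1), chr5:92309975-92310274 on the minus strand (Sdad1), chr6:125131633-125131932 on the plus strand (Nop2) and chr10:40246930-40247229 on the minus strand (Rpf2).
Mdn1: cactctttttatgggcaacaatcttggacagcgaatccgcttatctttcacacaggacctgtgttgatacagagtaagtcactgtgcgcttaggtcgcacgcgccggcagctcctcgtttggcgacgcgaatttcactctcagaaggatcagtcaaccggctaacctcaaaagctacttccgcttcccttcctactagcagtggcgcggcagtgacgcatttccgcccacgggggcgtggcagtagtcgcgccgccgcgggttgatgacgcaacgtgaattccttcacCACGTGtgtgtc
Sdad1: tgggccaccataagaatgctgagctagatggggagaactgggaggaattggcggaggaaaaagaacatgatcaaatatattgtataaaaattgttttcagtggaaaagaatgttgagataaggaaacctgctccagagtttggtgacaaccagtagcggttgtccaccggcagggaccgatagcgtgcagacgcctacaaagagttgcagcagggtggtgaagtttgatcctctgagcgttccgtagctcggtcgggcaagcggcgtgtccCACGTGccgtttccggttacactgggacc
Nop2: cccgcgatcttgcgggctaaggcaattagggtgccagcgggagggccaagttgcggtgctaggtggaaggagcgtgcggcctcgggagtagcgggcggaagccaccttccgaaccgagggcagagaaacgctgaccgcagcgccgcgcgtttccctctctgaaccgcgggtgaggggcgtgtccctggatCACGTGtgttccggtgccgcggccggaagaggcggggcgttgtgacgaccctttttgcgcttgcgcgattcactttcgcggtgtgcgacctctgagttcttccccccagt
Rpf2: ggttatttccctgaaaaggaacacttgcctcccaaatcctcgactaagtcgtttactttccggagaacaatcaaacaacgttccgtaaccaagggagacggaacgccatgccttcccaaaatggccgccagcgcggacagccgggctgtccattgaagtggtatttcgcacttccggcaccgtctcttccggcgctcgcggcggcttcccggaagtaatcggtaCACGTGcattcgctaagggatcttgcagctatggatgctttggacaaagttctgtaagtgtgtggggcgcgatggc
The motif began at base 39 after the start in Mdn1 and base 22 in Sdad1, and 60 bases before it in Nop2 and 26 before it in Rpf2. Rpf2 has another annotated start, in the window chr10:40246990-40247289, from which the same motif begins at base 35 after the start. A match describes letters only and is not evidence of binding.

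Setting shPHF2 against shControl addresses how these transcripts stood in cells with less Phf2. Of the 47 assembly factors, 25 were lower in shPHF2 and 0 were higher (limma with a trend on log2(value + 1), p adjusted by Benjamini-Hochberg over all 14148 genes tested, threshold 0.05). Over all genes tested, 7.11% were called lower and 7.22% higher. Because the list was chosen with earlier results of these data known, its distance from these shares is a description and not an independent test. At an unadjusted p under 0.05, 36 factors passed, all of them lower, beside 15.4% of all genes tested that passed and were lower. The 47 log2 fold changes ran from -1.15 to -0.02 with a median of -0.71, against a median of -0.01 for all genes. Medians were -0.69 in replicate 1 and -0.70 in replicate 2. Both shPHF2 libraries lay below shControl for 45 factors, a position held by 41.8% of all genes tested. The remaining 2 were Rrp1, where replicate 2 was above the control, and Las1l, where replicate 1 was. The summed normalised reads of all 47 were 116717 and 119775 in the shPHF2 libraries and 193245 in shControl, or 60.4% and 62.0% of it. The control is a single library, so its own spread is unknown and is taken to be like that of the shPHF2 libraries. Counts of calls differed between settings: limma called 0 of the 47, and 0 of all genes, without the trend, with no filter on low values and with quantile normalization. In these settings 29, 35 and 34 of the 47 had an unadjusted p under 0.05 and were lower, beside 10.9%, 11.4% and 12.9% of all genes tested in each.

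**Figure D1:**
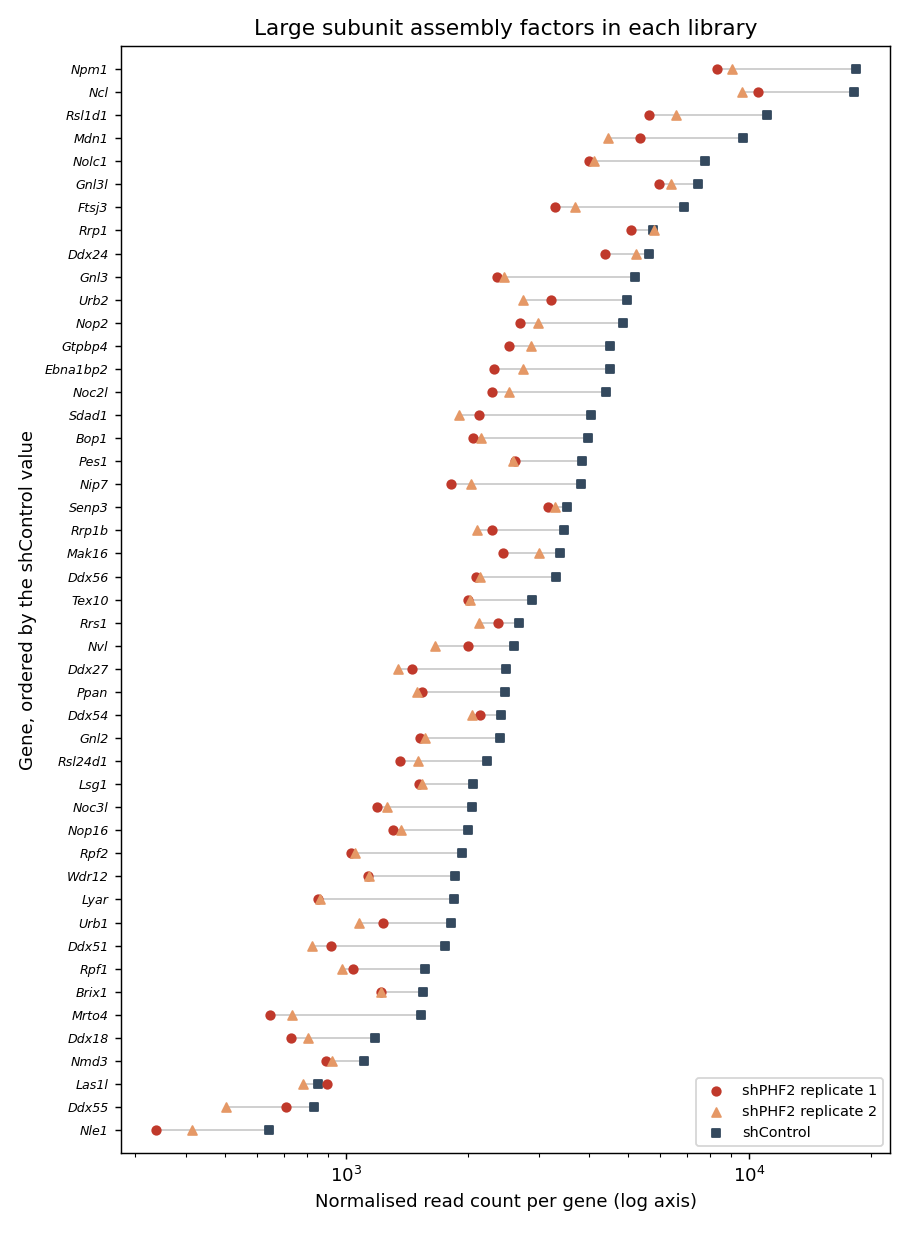
Normalised read count (x axis, log scale) of each of the 47 factors (y axis, ordered by the shControl value) in shPHF2 replicate 1 (circles), shPHF2 replicate 2 (triangles) and shControl (squares), with a grey line spanning the 3 libraries. The shPHF2 symbols lie left of the control square for 45 factors, and the exceptions are Rrp1 and Las1l.

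The general nucleolar proteins were lower in shPHF2, all 4 of them called, beside 7.11% of all genes tested called lower. Npm1, nucleophosmin, a chaperone of histones and ribosomal proteins, had 8320.3 and 9059 normalised reads in the shPHF2 libraries and 18324 in shControl. The shPHF2 mean of 8689.8 ± 523 (SD, n = 2) was 47.4% of the control, with a log2 fold change of -1.08 (limma, SE 0.19, adjusted p = 0.013). Lyar, a nucleolar protein that promotes processing of ribosomal RNA, fell furthest in this group, with 849.5 and 859.6 normalised reads in shPHF2 and 1848 in shControl. Its shPHF2 libraries differed by 0.02 on the log2 scale, while its log2 fold change was -1.11 (limma, SE 0.20, adjusted p = 0.014). Nolc1, a chaperone of the small nucleolar ribonucleoproteins, had 4006 and 4119 in shPHF2 and 7736 in shControl. Ncl, nucleolin, which binds nascent ribosomal RNA, fell least of the 4, with 10528 and 9575 in shPHF2 and 18118 in shControl, a log2 fold change of -0.85 (limma, SE 0.19, adjusted p = 0.027). In all 4 genes both shPHF2 libraries stood well below the control value. Per kilobase of annotated exon, Npm1 was the most abundant factor of the 47, at 3261 reads per kilobase in shPHF2 on average and 6876 in shControl, and Rsl1d1 came next at 2701 in shPHF2 and 4890.3 in shControl. The lowest 3 by this measure included Nmd3, at 89.2 in shPHF2 on average and 109 in shControl, and Las1l, at 103 in shPHF2 and 104 in shControl as well as Wdr12, at 94.9 in shPHF2 and 156 in shControl. Annotated exons that these cells do not use make such values too low.

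Of the 28 early nucleolar factors, 16 were lower and 0 higher, beside 7.11% of all genes tested called lower. Their median log2 fold change was -0.68. The called ones stood at 49.5% to 64.0% of the control and the others at 63.7% to 94.5%. Ddx51, a DEAD-box RNA helicase whose yeast counterpart acts in the earliest particles, had 915 and 821 normalised reads in shPHF2 and 1753 in shControl, a log2 fold change of -1.02 (limma, SE 0.20, adjusted p = 0.019). Both shPHF2 values were close to 50% of the control or below it, at 52.2% and 46.8%. Nip7, which binds RNA in the early particle, stood at 50.4% of the control and Ftsj3, a methyltransferase-family factor of precursor processing, at 50.9%. The 3 subunits of the PeBoW complex, which is needed for processing of the large subunit's RNA, had estimates of different size. Bop1 fell by 0.91 on the log2 scale and Wdr12 by 0.72, while Pes1 had -0.56 and did not pass (limma, adjusted p = 0.067). The interval of Pes1, -0.96 to -0.16 at 95%, contains the values of the other subunits.

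Helicases and paired factors were partly called. Of 7 DEAD-box helicases, 3 were lower, beside 7.11% of all genes tested called lower. The 3 were Ddx51, Ddx27 (56.2% of the control) and Ddx56 (64.0%). Ddx18, Ddx55, Ddx24 and Ddx54 did not pass and had log2 fold changes of -0.62, -0.48, -0.23 and -0.21. Ddx55 had the largest gap between the shPHF2 libraries of all 47 factors, with 709 and 503 normalised reads against 833 in shControl. Rpf2 and Rrs1, which together bring the particle of the smallest large-subunit RNA into the assembling subunit, had log2 fold changes of -0.90 and -0.25. Rpf2 passed (limma, adjusted p = 0.023) and Rrs1 did not (adjusted p = 0.40), and their difference was not tested. Rpf2 shares the Brix domain, an RNA-binding fold of assembly factors, with Ppan, Rpf1 and Brix1. Ppan stood at 61.3% of the control and was called, whereas Rpf1 and Brix1 stood at 64.5% and 78.9% and were not.

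Among the scaffolds and other early factors, Noc2l and Noc3l fell by 0.87 and 0.74 on the log2 scale. Rsl1d1, Ebna1bp2 and Nop2, the last a methyltransferase of large-subunit RNA, fell by 0.86, 0.83 and 0.78. Urb2 fell by 0.74, and its yeast-defined partner Urb1 had -0.65 without passing (limma, adjusted p = 0.066). Nop16 at -0.58 and Mak16 at -0.32 did not pass either. The paralogs Rrp1 and Rrp1b, related nucleolar proteins, had unlike estimates, a difference that was not tested. Rrp1b had 2294 and 2106 normalised reads in shPHF2 and 3469 in shControl, a log2 fold change of -0.66 (limma, SE 0.18, adjusted p = 0.045). Rrp1 had 5096 and 5804 in shPHF2 and 5764 in shControl, the smallest change of the early factors at -0.08, with a 95% interval of -0.50 to 0.34. Its replicate 2 lay above the control and replicate 1 below.

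The nucleoplasmic factors spread most, with 5 of 13 lower and 0 higher, beside 7.11% of all genes tested called lower. Their median log2 fold change was -0.64. Mrto4, related to a protein of the ribosomal stalk whose place it holds during assembly, fell furthest of all 47 factors. It had 647 and 733 normalised reads in shPHF2 and 1533 in shControl, a shPHF2 mean of 45.0% of the control and a log2 fold change of -1.15 (limma, SE 0.21, adjusted p = 0.016). Gnl3, nucleostemin, is a GTP-binding nucleolar protein first studied in neural stem cells. It was grouped with the nucleoplasmic factors here, although its protein is nucleolar. Gnl3 had 2366 and 2462 in shPHF2 and 5212 in shControl. Its log2 fold change of -1.11 (limma, SE 0.17, adjusted p = 0.0094) had the lowest adjusted p of the 47. Sdad1, whose yeast counterpart accompanies the particle out of the nucleolus, had 2139 and 1907 in shPHF2 and 4056 in shControl, a log2 fold change of -1.01 (limma, SE 0.18, adjusted p = 0.014). With Npm1, Lyar and Ddx51 these made up the 6 factors that were called and lower by 2-fold or more.

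Enzymes that use ATP or GTP were divided between lower and uncalled. Midasin (Mdn1), the giant ATPase that strips factors from the particle, fell by 0.98 on the log2 scale, to 50.8% of the control. Nle1, the factor on which midasin pulls, stood at 58.5% with a log2 fold change of -0.78 but was not called (limma, adjusted p = 0.092), and it was the least covered gene, with 338 and 415 normalised reads in shPHF2 and 643 in shControl. Nvl, another ATPase of this kind, had -0.52 and was not called. Of 5 GTPases, Gnl3 and Gtpbp4 were lower, Gtpbp4 by 0.74, beside 7.11% of all genes tested called lower. Gnl2, with 1521 and 1565 in shPHF2 and 2401 in shControl, lay at the threshold (limma, adjusted p = 0.053). Gnl3l, the paralog of nucleostemin, had -0.27 with a 95% interval of -0.68 to 0.14, which lies above the estimate for Gnl3, although the difference between these paralogs was not tested. Rsl24d1, which is related to a large-subunit protein and is replaced by it late in assembly, had 1361 and 1508 in shPHF2 and 2235 in shControl and was not called (limma, adjusted p = 0.059).

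Tex10, Las1l, Senp3, Nmd3 and Lsg1 were not called. Tex10, Las1l and Senp3 belong to one complex, in which Las1l is the endonuclease that cuts the internal spacer of the precursor and Senp3 removes SUMO from its partners. Their log2 fold changes were -0.52, -0.02 and -0.13. Nol9, Wdr18 and Pelp1, partners in this complex from the list of other large subunit factors described below, had -0.76, -0.59 and -0.29. Of these, Nol9 was called (limma, adjusted p = 0.028), and Wdr18 and Pelp1 were not. Las1l had 894 and 780.1 normalised reads in shPHF2 and 849 in shControl, so its shPHF2 libraries lay on either side of the control. Its 95% interval of -0.53 to 0.48 does not show that it was unaltered. The late pair comprised Nmd3, the adaptor that joins the subunit to the export receptor, and Lsg1, the cytoplasmic GTPase that releases Nmd3. Nmd3 had 889 and 924 in shPHF2 and 1105 in shControl, a log2 fold change of -0.29 (limma, SE 0.20, adjusted p = 0.38). Lsg1 had 1517 and 1541 in shPHF2 and 2060.3 in shControl, a log2 fold change of -0.43 (limma, SE 0.18, adjusted p = 0.15). Both late genes were below the control in both shPHF2 libraries, and neither was called. The median of the early nucleolar factors was 0.32 lower than that of the late pair on the log2 scale, a gap described here without a test because only 2 genes stand on the late side and genes are not replicates.

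**Figure D2:**
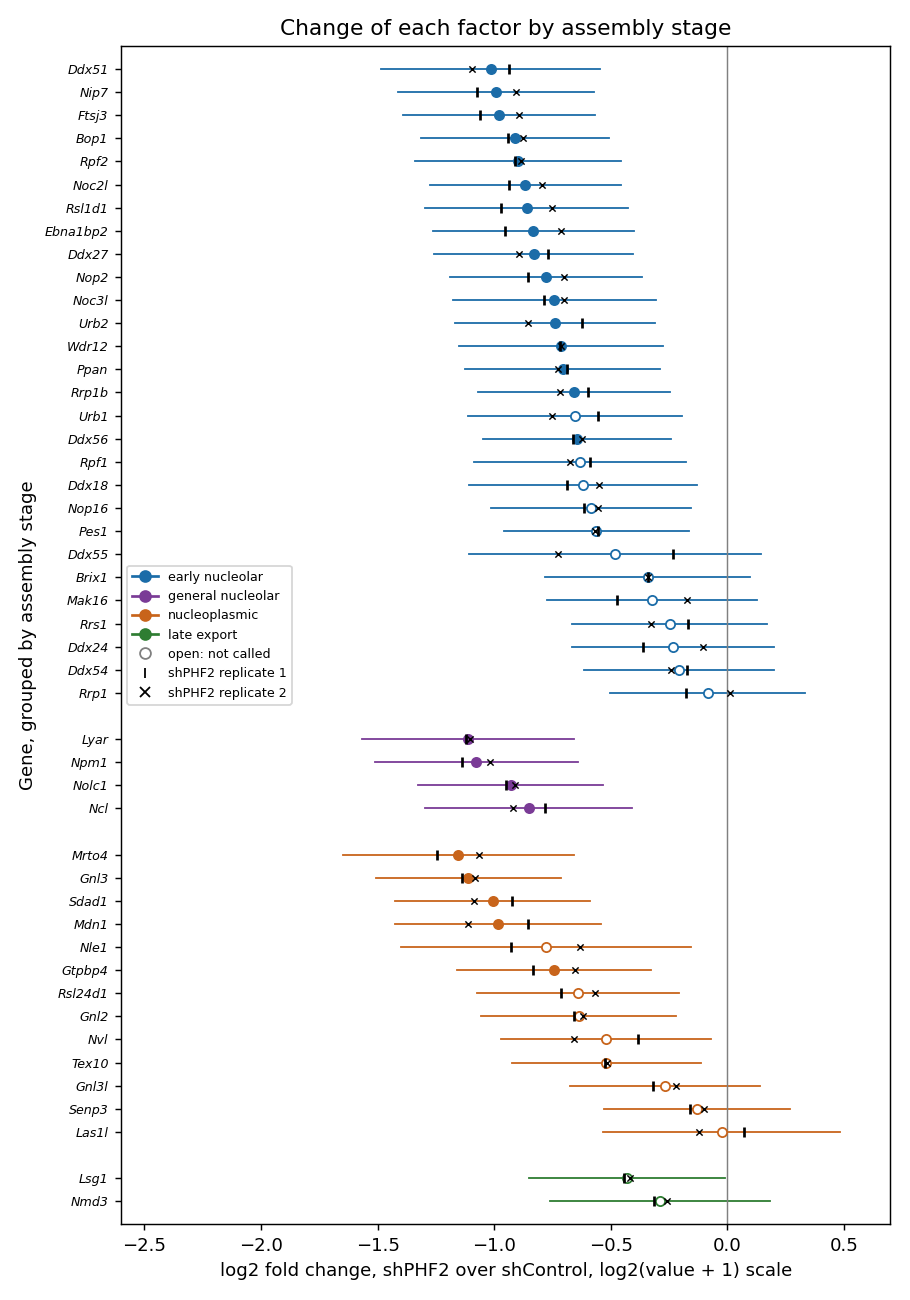
Log2 fold change of each factor, shPHF2 over shControl (x axis), with genes grouped by assembly stage (y axis, colours), where circles are limma estimates, filled if called, lines are 95% intervals, bars mark replicate 1 and crosses replicate 2. All 4 general nucleolar proteins are filled at -1.11 to -0.85, while the 2 late export genes are open at -0.43 and -0.29.

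Calls near the threshold differed between tools. edgeR's quasi-likelihood test on the recovered reads called 27 factors lower, with 8.06% of all genes lower, adding Gnl2 and Rsl24d1 (adjusted p = 0.042 and 0.046). DESeq2 called 22, with 7.43% of the 13050 genes to which it gave an adjusted p lower, and left out Ddx56, Rrp1b and Wdr12 (adjusted p = 0.059, 0.055 and 0.059). Ddx56 had 2093 and 2151 normalised reads in shPHF2 and 3314 in shControl. Wdr12 had 1133 and 1136 in shPHF2 and 1863 in shControl. The values of each of these 5 genes lay below the control in both shPHF2 libraries, and 22 factors were called by limma, edgeR and DESeq2 alike. With a correction for GC content and length, chosen after seeing the data, limma called 23 factors lower and 6.32% of the 13266 genes with both properties known, and Noc3l, Wdr12 and Gtpbp4 were not among them. The authors' deposited table also called 22 of the 47 lower, with 7.96% of its tested genes lower.

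Annotation bears on how certain some of these values are. In GENCODE M21 on GRCm38, an exon of 15 factors overlapped an exon of a gene on the other strand, 8 of them called, beside 25 of all 47. Without a stated strand setting in the counting such reads cannot be assigned with certainty. The 8 were Urb2, Noc2l, Rrp1b, Bop1, Wdr12, Gtpbp4, Gnl3 and Sdad1. On the same strand, where a strand setting does not separate reads, 2 factors had an overlapping exon, Ncl with mmu-mir-3535 and Rsl24d1 with Gm20509. GENCODE names 7 pseudogenes after Gtpbp4 and 2 after Mrto4, so reads of those genes could have been lost to copies. Small nucleolar RNAs lie within 3 factors, Ncl and Gnl3 with 3 each and Ppan with 2, and all 3 host transcripts were lower.

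Related genes of ribosome assembly were examined beside these factors. Of 32 other large subunit factors, 11 were lower and 0 higher, beside 7.11% of all genes tested called lower. Their median log2 fold change was -0.59. The largest falls among the called were those of Tma16 (-1.23), Zfp593 (-1.11), the importer of ribosomal proteins Heatr3 (-1.002) and Rrp15 (-0.90). The factors that act in the cytoplasm to free the subunit for translation, picked out after their values were seen, were not called, with Eif6 at -0.13, Sbds at -0.26, Eftud1 at -0.14 and Zfp622 at 0.21. Eif6 had 3088 and 3513 normalised reads in shPHF2 and 3595 in shControl. Zfp622 had 984 and 989.8 in shPHF2 and 853 in shControl, so both its shPHF2 values were above the control. The export genes Nxt1 and Xpo1 of the same list had log2 fold changes of -0.74 and -0.63. Nxt1 was called (limma, adjusted p = 0.042). Xpo1 was not called by limma (adjusted p = 0.069) but was by DESeq2 (adjusted p = 0.046).

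Of 53 small subunit factors, 23 were lower and 0 higher, beside 7.11% of all genes tested called lower. Their median was -0.61. The largest falls were those of Pno1 (-2.52), Rrp12 (-1.22), Utp14a (-1.06) and Pwp2 (-1.05), against -1.15 for Mrto4, the largest among the 47. Of 48 large subunit ribosomal protein genes tested, 7 were lower and 0 higher, beside the same 7.11% of all genes. Their median was -0.48. Rpl15 (-1.74), Rpl12 (-0.96), Rpl5 (-0.94) and Rpl22l1 (-0.83) fell furthest among the called. Ribosomal protein genes have many processed copies, and Rpl26 was at 0 and 1.21 in shPHF2 and 1.00 in shControl, so their values are uncertain. No test of the 47 against these lists was made, and the medians are given as descriptions.

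**Figure D3:**
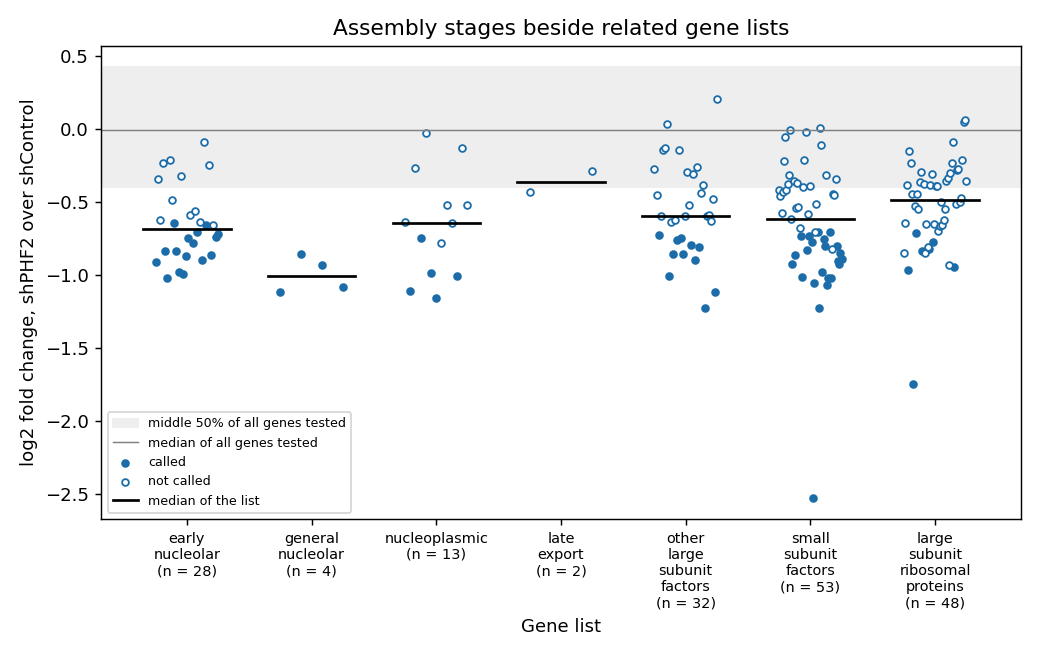
Log2 fold change, shPHF2 over shControl (y axis), of every tested gene in the 4 assembly stages and in 3 related lists (x axis), filled where called, with a black line at the list's median, a grey line at the median of all genes tested and a band over their middle 50%. The medians run from -1.003 for the general nucleolar proteins to -0.36 for the late pair, and the lone point at -2.52 is Pno1.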

How the data were processed

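RNA of 3 libraries of mouse neural stem cells, 2 shPHF2 and 1 shControl, was sequenced with a stranded total RNA kit, per the labels' protocols. HISAT2, HTSeq, DESeq2 and the build mm10 are named in the submitters' processing notes, and neither versions nor the strand setting is given in the sources used here. The deposited values are a signal, read counts that the authors divided by a size factor (1.20 and 0.829 for shPHF2 replicates 1 and 2, 1.00 for shControl, from the steps between values). All values (100%) were whole multiples of 1 step per library, within 0.001, which gave back whole reads. The deposited table also holds the authors' log2 fold changes with standard errors, Wald scores, p-values and adjusted p-values, per the file headers. Library columns not used numbered 0.

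In the order shPHF2 replicate 1, shPHF2 replicate 2 and shControl, 38.5%, 38.5% and 38.6% of the reads in the table fell in genes, and 44.0%, 38.7% and 42.7% on no counted feature. The 4 rows that name no gene were left out of the tests and of the library sizes computed for edgeR and DESeq2. Whether they entered the authors' size factors, which the values tested with limma keep, is not given.

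The main test was limma 3.58.1 in R 4.3.3 (lmFit, then eBayes with a mean-variance trend) on log2(value + 1) for genes with a mean of 10 or more, two-sided, adjusted by Benjamini-Hochberg over all genes. Fold changes on this scale understate those of low genes. There is 1 residual degree of freedom, from the shPHF2 libraries, beside 6.94 prior ones. The p-values measure the spread between these libraries, mostly as pooled over genes of similar level and little that of the gene itself. Brix1, with a log2 gap of 0.0005 between its shPHF2 libraries, had an SE of 0.19, as did Rsl1d1 with a gap of 0.22. Alternatives were edgeR 4.0.16 and DESeq2 1.42.0 on the recovered reads, limma without the trend, a pseudocount of 5, no minimum mean or one of 50, quantile normalization, each shPHF2 library left out and a GC and length correction. The code was tested on simulated data. The members and lists were chosen with earlier results of these data known. All 47 members are named. Values in every library are given for those called and changed at least 2-fold, for the extremes of each stage and for those on which limma, edgeR and DESeq2 differ, and for some others after their values were seen. For each related list the 4 called genes of largest change are named. Gene positions come from GENCODE M21.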

Additional observations from a re-analysis of the deposited data

How the results depend on the processing

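The number of assembly factors called lower (25) was 22 to 27 with edgeR, DESeq2, a pseudocount of 5, a minimum mean of 50 and the GC and length correction, the last chosen after seeing the data. It was 0 with limma without the trend, with no filter on low values and with quantile normalization, settings under which limma called 0 of all genes; with quantile normalization 0 genes were called lower in each related list too. The cause was not tested. The number called higher was 0 in every setting. With quantile normalization the medians (log2) were -0.62 for all 47 factors, -0.61 for early nucleolar, -0.89 for general nucleolar, -0.57 for nucleoplasmic, -0.32 for late export, -0.54 for other large subunit and -0.60 for small subunit factors. With the GC and length correction they were -0.72 for early nucleolar, -0.25 for late export and -0.56 for small subunit factors, and Noc3l, Wdr12 and Gtpbp4 lost their calls while Urb1 gained one. With edgeR the small subunit median was -0.61. Leaving out 1 shPHF2 library gave medians of -0.70 to -0.69 for all 47, -0.71 to -0.67 for early nucleolar, -0.71 to -0.63 for nucleoplasmic, -0.56 to -0.55 for other large subunit and -0.622 to -0.620 for small subunit factors. Neither Rrp1 nor Las1l was called, and their signs turned, Rrp1 to 0.023 with quantile normalization and -0.18 to 0.0099 with 1 shPHF2 library left out, Las1l to 0.083 with the GC and length correction and -0.12 to 0.074 with 1 left out. No paired analysis was possible with a single control library, which also carries no replicate number in the labels. At least 344 reads lie behind each value of the 47 factors, and the deviation of the lone control from other control cultures cannot be seen.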
